A study of Mus musculus with 2 samples.

Results

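The genes described here encode the hypoxia-inducible factors (HIF) and the enzymes that couple them to oxygen: the alpha subunits Hif1a, Epas1 and Hif3a, their partners Arnt and Arnt2, the prolyl hydroxylases Egln1, Egln2 and Egln3, the ubiquitin ligase subunit Vhl and the asparaginyl hydroxylase Hif1an. These 10 genes were taken by symbol from 43346 Ensembl genes quantified in both libraries, and all 10 were found. The tissue was whole heart from B6NCrl mouse embryos at embryonic day 15.5, healthy and with the sexes pooled. Replicate 1 was a pool of hearts from 78 embryos and replicate 2 a pool from 62 embryos, and both belonged to the only group. Each library was made from 10 ng of RNA longer than 200 nt. Levels are given as TPM (transcript abundance scaled to a fixed total per library), which is per unit of transcript length and can therefore be set side by side between genes.

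Alpha subunits are made continuously. When oxygen is present, EGLN enzymes hydroxylate prolines in them, and VHL, as the recognition subunit of an elongin and cullin ubiquitin ligase, binds the hydroxylated protein and marks it for the proteasome. Hif1an, also called FIH, hydroxylates an asparagine in the transactivation domain and so hinders the binding of the coactivators p300 and CBP. In low oxygen the alpha subunit persists, pairs with ARNT and activates genes of glycolysis, angiogenesis and red cell formation, and in the embryonic heart this pathway bears on growth of the compact myocardium and of the coronary vessels. Because much of this control acts on protein stability, an mRNA level is not a measure of HIF activity.

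The gene tables held 41221435 expected counts on Ensembl genes in replicate 1 and 38457396 in replicate 2. Markers of cardiomyocytes, endothelium, endocardium, fibroblasts and mural cells were present, with 28 of 28 genes in these 4 lists reaching 1 TPM in each library, as did 5 of 6 erythroid and 5 of 5 macrophage markers. Replicate 2 held more RNA of tissues outside the heart. Markers of lung epithelium, liver, thymocytes, and neurons and chromaffin cells were past 1.5-fold higher there in 22 of 22 cases, against 11.2% of all genes compared, with none at a count of 0 in either library. In bulk tissue, fewer cells of a type and less RNA per cell cannot be told apart. With 2 libraries of 1 group there is no contrast of conditions, and an exact sign-flip test could not go below p = 0.5, so levels and ratios are given by library without a test.

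All 10 genes reached 1 TPM in each library, against 31.9% of Ensembl genes and 58.2% of protein-coding genes. Levels spanned 73.3-fold in replicate 1 and 33.8-fold in replicate 2, from Arnt2 up to Hif1a. The median of protein-coding genes detected in both libraries was 15.8 TPM, and 7 of the 10 genes were above it. Those below it were Egln1, Epas1 and Arnt2. The order by mean TPM was Hif1a, Egln2, Hif3a, Arnt, Vhl, Egln3, Hif1an, Egln1, Epas1 and Arnt2. Of the 9 neighbouring pairs in that order, 2 had overlapping library ranges, Arnt with Vhl and Egln3 with Hif1an. Within each library Arnt was above Vhl, while Egln3 and Hif1an changed places between the libraries. The other 7 pairs had ranges that did not touch.

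**Figure D1:**
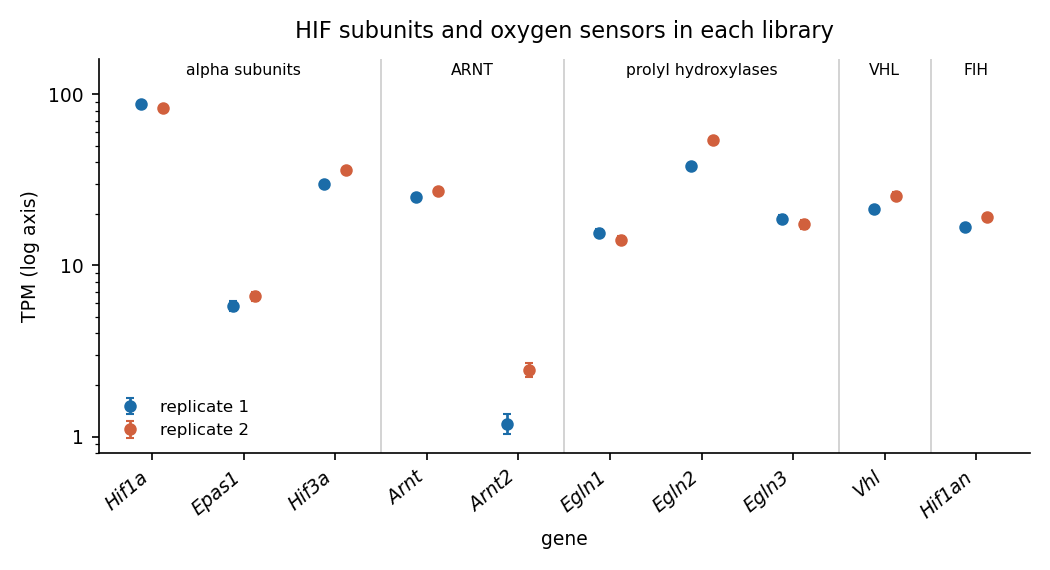
TPM of the 10 genes in replicate 1 (blue) and replicate 2 (orange) on a log axis, grouped by role, with exact 95% Poisson intervals that cover counting error only. Hif1a is highest at 87.3 and 82.6 TPM, Arnt2 lowest at 1.19 and 2.44 TPM, and Hif3a lies above Epas1 in both libraries.

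Among the alpha subunits, Hif1a led, Hif3a came next and Epas1 was lowest in both libraries. Hif1a, the broadly expressed subunit (chr12:73901375-73947530), stood at 87.3 TPM in replicate 1 and 82.6 TPM in replicate 2 (84.9 ± 3.32, mean ± SD, n = 2), above 88.1% of detected protein-coding genes. Hif3a, which lacks the C-terminal transactivation domain and can restrain the other alpha subunits (chr7:17031507-17062427), had 29.8 and 35.8 TPM (32.8 ± 4.24). Epas1, which encodes HIF-2 alpha and is best known from endothelium (chr17:86753700-86833410), had 5.80 and 6.59 TPM (6.20 ± 0.559). The ranges of the 3 genes were far apart.

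Hif1a exceeded Epas1 by 15.0-fold in replicate 1 (95% counting interval 14.1 to 16.1) and by 12.5-fold in replicate 2 (11.7 to 13.4), a log2 ratio of 3.76 ± 0.18 (SD, n = 2, pseudocount 0.1 TPM). Hif3a exceeded Epas1 by 5.13-fold (4.79 to 5.51) and 5.43-fold (5.07 to 5.82), which is a log2 ratio of Epas1 over Hif3a of -2.38 ± 0.06 (SD). Both orders held in each library, and the gap between Hif3a and Epas1 was nearly the same size in the 2 pools. As shares of the summed TPM of the alpha subunits, Hif1a took 71.0% and 66.1%, Hif3a 24.2% and 28.6%, and Epas1 4.72% and 5.28% in replicates 1 and 2. Of the endothelial markers, 9 of 9 were detected, their median being 45.9 TPM, from Erg at 5.62 TPM to Egfl7 at 147 TPM. Their bearing on the level of Epas1 was not tested.

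**Figure D2:**
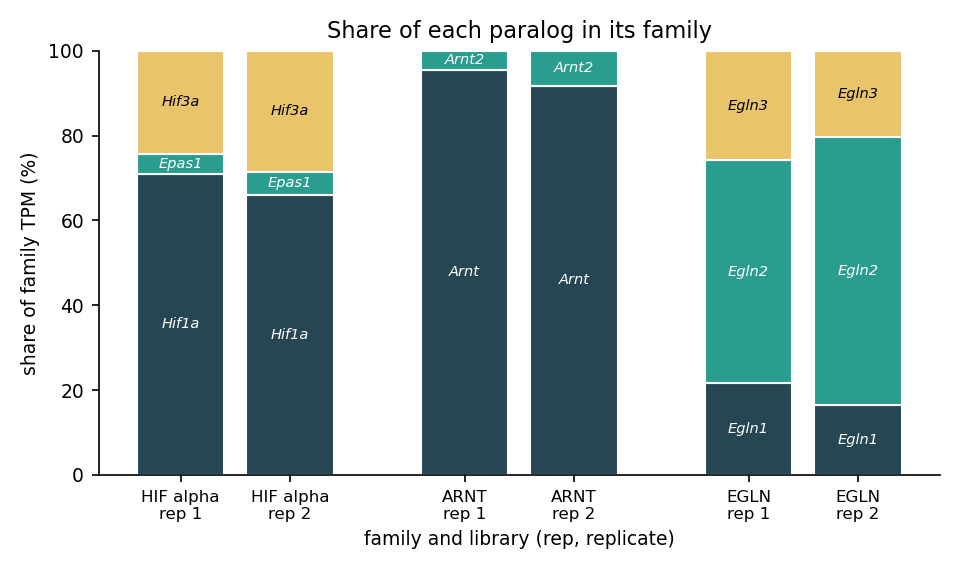
Share of each paralog in the summed TPM of its family, in percent, as stacked bars for each library. Hif1a takes most of the alpha subunit TPM, Arnt nearly all of the ARNT TPM, and Egln2 the largest part of the EGLN TPM, 52.6% in replicate 1 and 63.3% in replicate 2.

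Hif3a RNA came mainly from a pair of transcripts with different ends. Hif3a-202 starts at the most upstream annotated start and has 15 exons and a long last exon. It held 63.24% of the Hif3a TPM in replicate 1 and 66.51% in replicate 2. Hif3a-201 starts 5748 bases further down the gene, also has 15 exons, and held 32.15% and 31.65%. The shares of these transcripts barely moved between the pools.

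The coding parts of Hif3a-202 and Hif3a-201 have 664 and 662 codons and share 1966 bases, so they differ only at the start of the reading frame, by 26 coding bases in the one and 20 in the other. These coding bases lie in separate first exons, of 72 bases in Hif3a-202 (chr7:17062356-17062427) and of 103 bases in Hif3a-201 (chr7:17056577-17056679). Hif3a-202 alone also has 4227 bases of 3′ end (chr7:17031507-17035733). The split between these transcripts therefore rests on few bases at the 5′ end and on many at the 3′ end. Use of the start and of the 3′ end cannot be told apart in these estimates. By reads and not per length, Hif3a-201 held 14.5% and 13.7% of the Hif3a counts. In TPM, Hif3a-202 stood at 18.8 and 23.8, with intervals in the authors' deposited table of 17.8 to 19.2 and 22.5 to 24.2, and Hif3a-201 at 9.57 and 11.3, with deposited intervals of 7.95 to 10.9 and 9.48 to 12.9. Thus in TPM Hif3a-201 by itself was above the whole of Epas1 in each library. By reads it was below, with 655 and 692 counts against 981 and 995 for Epas1. The remaining transcripts, Hif3a-203 and Hif3a-204, have incomplete ends in the annotation and held at most 4.61% in either library.

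Hif1a RNA was also assigned mainly to a pair of transcripts with different annotated starts. Hif1a-201, with 836 codons, held 69.24% and 69.82% of the Hif1a TPM. Hif1a-202, which begins 6529 bases upstream of it and has 810 codons, held 18.63% and 22.93%. The upstream transcript has its own first exon of 124 noncoding bases (chr12:73901375-73901498). It lacks 421 bases of the first exon of Hif1a-201, 35 of them coding, and also lacks 42 coding bases at chr12:73941688-73941729. In TPM that was 16.3 and 18.9 for Hif1a-202. The split draws on both of these differences, so use of the start and loss of the 42 bases cannot be told apart in these estimates. Retained-intron transcript Hif1a-204 held 8.39% and 5.38% of TPM but only 1.22% and 0.75% of reads, being 693 bases long. Gm15283, an antisense gene that overlaps the exons of Hif1a by 330 bases, had 1.42 and 1.08 TPM, with strand use in counting not stated in the sources.

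**Figure D3:**
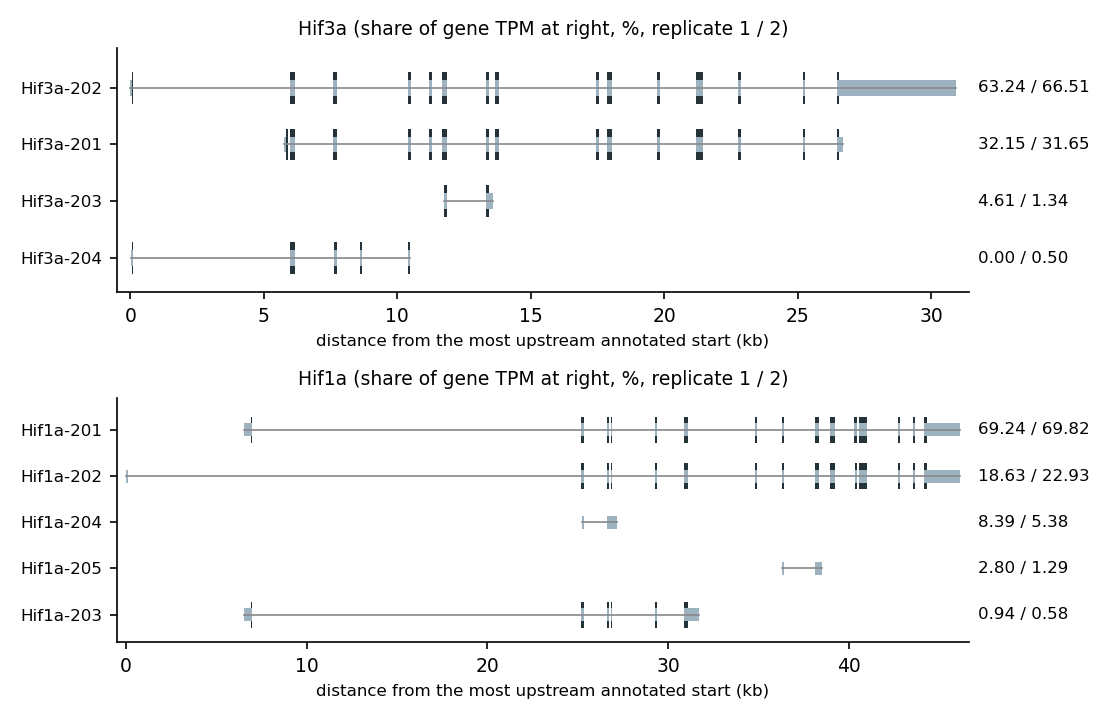
Annotated transcripts of Hif3a and Hif1a drawn against distance in kilobases from the most upstream start of each gene, with exons as light boxes, coding parts as dark tall boxes and the share of the gene's TPM in each library at the right. Hif3a-202 and Hif3a-201 differ at the first exon and at the 3′ end, and Hif1a-202 begins 6529 bases upstream of Hif1a-201.

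Of the constitutive partners, Arnt carried nearly all of the ARNT RNA. Arnt, the general dimerization partner of HIF alpha and of the aryl hydrocarbon receptor (chr3:95434388-95497240), had 25.1 TPM in replicate 1 and 27.3 TPM in replicate 2 (26.2 ± 1.56, SD, n = 2). Arnt2, whose expression is best known from neurons and kidney (chr7:84246278-84410176), had 1.19 and 2.44 TPM (1.82 ± 0.884), above 4.15% of detected protein-coding genes. The Arnt values were close, while Arnt2 in replicate 2 was 2.05 times its TPM in replicate 1.

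Arnt exceeded Arnt2 by 21.1-fold (18.4 to 24.2) in replicate 1 and by 11.2-fold (10.1 to 12.4) in replicate 2. The log2 ratio of 3.86 ± 0.61 (SD) had the widest spread of the ratios compared here. The summed alpha subunits stood at 123 and 125 TPM against 26.3 and 29.7 TPM for the summed ARNT genes, or 4.68-fold and 4.20-fold more alpha than ARNT RNA. Those sums say nothing of the proteins, of which the alpha subunits are short-lived in oxygen.

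Arnt had 11 annotated transcripts in the files. Arnt-202, with 776 codons, led at 62.87% and 70.45% of the Arnt TPM. Arnt-203, which includes a 45-base coding exon that Arnt-202 skips (chr3:95466793-95466837), held 14.73% and 13.10%, and Arnt-205, which leaves out 48 coding bases further down, held 8.08% and 6.92%. The short transcript Arnt-204 held 8.11% in replicate 1 and 1.90% in replicate 2, the largest relative shift among Arnt transcripts above 5% in either library. Arnt-203 also lacks 1673 bases of the 3′ end of Arnt-202, so its share does not come from the 45-base exon alone. Retained-intron transcripts together held 6.22% and 7.62%.

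The prolyl hydroxylases were led by Egln2, not by Egln1. Egln2, which encodes the mainly nuclear PHD1 (chr7:27158658-27166802), had 37.8 TPM in replicate 1 and 54.1 TPM in replicate 2 (45.98 ± 11.5, SD, n = 2). Egln3, which encodes PHD3 and is itself induced by HIF (chr12:54178981-54203860), had 18.6 and 17.3 TPM (18.0 ± 0.912). Egln1, which encodes PHD2, the main limiter of HIF-1 alpha in most cells (chr8:124908587-124949324), had 15.5 and 14.0 TPM (14.8 ± 1.06). Egln2 was highest in both libraries, and no library range of Egln1, Egln2 and Egln3 overlapped another.

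Egln2 exceeded Egln1 by 2.44-fold (95% counting interval 2.29 to 2.60) in replicate 1 and by 3.86-fold (3.63 to 4.12) in replicate 2, a log2 ratio of Egln1 over Egln2 of -1.61 ± 0.47 (SD). Egln3 exceeded Egln1 by only 1.20-fold (1.12 to 1.29) and 1.24-fold (1.15 to 1.33), a log2 ratio of Egln1 over Egln3 of -0.28 ± 0.03. Without length normalization this small ratio turned over to 0.13, since Egln1 has the longer transcript. The shares of the EGLN TPM were 52.6% and 63.3% for Egln2, 25.9% and 20.3% for Egln3, and 21.6% and 16.4% for Egln1. Egln2-201 with 419 codons held 94.82% and 97.09% of the Egln2 TPM, and Egln2-202, which begins 389 bases further down and encodes the same 419 codons, held 3.38% and 1.71%. Egln1 and Egln3 each had 1 transcript in the files, of 400 and 239 codons.

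Vhl RNA was the lowest among the genes of its ligase list, and protein amounts were not measured. Vhl, the subunit that recognizes hydroxylated alpha subunits (chr6:113623959-113631633), had 21.2 and 25.5 TPM (23.4 ± 3.04, SD, n = 2). All 6 genes of the ligase list, which holds Vhl, were detected, with a median of 173 TPM. In replicates 1 and 2, elongin B (Elob) stood at 691 and 568 TPM, elongin C (Eloc) at 226 and 179.8, the ring finger subunit Rbx1 at 147 and 138 and the cullin scaffold Cul2 at 53.2 and 53.5. The ubiquitin-like modifier Nedd8, which activates cullins, stood at 338 and 313 TPM. Elongins, Rbx1 and Nedd8 also serve other complexes. None of the 6 was past 1.5-fold between libraries, against 15.9% of all genes compared. All Vhl reads fell to Vhl-201, of 181 codons, while Vhl-202 and Vhl-203 had counts of 0.

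Hif1an was at a level near those of Egln1 and Egln3. Hif1an (chr19:44562850-44576274) had 16.7 and 19.3 TPM (18.0 ± 1.84, SD, n = 2). Its protein-coding transcript Hif1an-201, of 349 codons, held 76.80% and 88.27% of that, or 12.8 and 17.0 TPM. A retained-intron transcript of 868 bases, Hif1an-202, held 23.20% and 11.73% of TPM but only 3.67% and 1.65% of reads. Vhl exceeded Hif1an by 1.27-fold (1.20 to 1.35) and 1.33-fold (1.25 to 1.40), a log2 ratio of 0.38 ± 0.04 (SD). With protein-coding transcripts only that ratio was 0.66, and on counts without length normalization it reversed to -0.56.

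The nucleotide sequences upstream of these genes were searched for ACGTG, a core that HIF dimers can bind, on both strands (the reverse strand reads CACGT). RefSeq start sites on GRCm38.p6 gave 10 windows of 250 bases for 9 of the 10 genes. Of these windows 4 held the motif, those of Hif1a, Egln1, Egln3 and the upstream start of Egln2, against 16.6% of 32817 windows of all genes. The motif overlaps the E-box CACGTG, which many other bHLH factors bind and which 6.02% of all windows hold. Windows of the HIF target list described below held the motif in 20 of 46 cases, or 43.5%. These windows came from 31 of the 39 listed genes, of which 17 held the motif. Egln1, Egln3 and Hif3a are in that list too. A match is a description of letters and not of binding. Shown are the windows of the 3 genes that are themselves known HIF targets, Egln1, Egln3 and Hif3a, and of Hif1a, read 5′ to 3′ up to the base before the start, with capitals for the motif on either strand.
Egln1, chr8:124949255-124949504, minus strand: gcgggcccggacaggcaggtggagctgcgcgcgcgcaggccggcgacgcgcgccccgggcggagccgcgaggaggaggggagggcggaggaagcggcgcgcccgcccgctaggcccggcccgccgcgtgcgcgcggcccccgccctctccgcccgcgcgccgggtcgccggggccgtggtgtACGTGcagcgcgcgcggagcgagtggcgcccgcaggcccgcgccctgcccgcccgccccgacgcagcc
Egln3, chr12:54203875-54204124, minus strand: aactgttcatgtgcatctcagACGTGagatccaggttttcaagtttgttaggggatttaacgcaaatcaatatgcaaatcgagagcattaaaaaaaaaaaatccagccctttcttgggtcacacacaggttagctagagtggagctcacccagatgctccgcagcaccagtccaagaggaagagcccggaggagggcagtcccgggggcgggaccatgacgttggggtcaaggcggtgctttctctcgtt
Hif3a, chr7:17062428-17062677, minus strand: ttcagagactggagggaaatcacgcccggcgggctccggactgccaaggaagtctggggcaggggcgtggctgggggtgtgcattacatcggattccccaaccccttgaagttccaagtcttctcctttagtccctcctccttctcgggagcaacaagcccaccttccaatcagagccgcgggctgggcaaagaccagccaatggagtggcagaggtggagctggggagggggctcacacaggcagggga
Hif1a, chr12:73907617-73907866, plus strand: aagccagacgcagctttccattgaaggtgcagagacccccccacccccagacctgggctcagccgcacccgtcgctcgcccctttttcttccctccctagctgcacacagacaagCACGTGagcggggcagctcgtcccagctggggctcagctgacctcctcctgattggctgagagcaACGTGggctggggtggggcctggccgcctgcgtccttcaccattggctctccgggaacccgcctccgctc
In Egln1 the motif begins 68 bases before the start. In Egln3 it begins 229 bases before the start. The Hif1a window belongs to Hif1a-201, whose annotated start lies 37 bases from the RefSeq one. It holds an E-box whose matches begin 135 and 134 bases before the start and a further match at 70 bases. The Hif3a window, at the start of Hif3a-202, holds no match to ACGTG, and no other form of the core was searched.

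Between the libraries 1 of the 10 genes, Arnt2, was past 1.5-fold in counts scaled by edgeR's TMM factors, against 15.9% of 17029 genes with 10 or more counts in each library (11.2% higher and 4.74% lower in replicate 2). That count is near the background. Arnt2 had 227 counts in replicate 1 and 416 in replicate 2, which is 1.74-fold higher in replicate 2 (95% counting interval 1.48 to 2.06), and 9.67% of genes were farther from equal. Spike-in scaling put it at 0.923-fold, with the median gene shifted as well. Relative to the median gene it was 1.76-fold higher, a value that count scalings cannot alter because each multiplies all genes of a library by the same factor, and 1.77-fold higher in TPM. Each side is 1 library, so the difference has no replicate check.

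Markers of tissues outside the heart were also higher in replicate 2, as were 11.2% of all tested genes past 1.5-fold. With 2 libraries, a shared direction does not link genes. The summed TPM of 7 neuron and chromaffin markers was 11.3 in replicate 1 and 69.9 in replicate 2, that of 5 thymocyte markers 15.6 and 160, that of 5 liver markers 44.3 and 203, and that of 5 lung epithelium markers 130 and 331. Their part in the Arnt2 difference was not tested. The 8 cardiomyocyte markers summed to 33984 and 27954 TPM.

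The other 9 genes lay within 1.5-fold. In scaled counts, replicate 2 over replicate 1 was 1.23 for Egln2, 1.11 for Hif1an, 1.06 for Hif3a, 1.02 for Vhl, 0.971 for Arnt, 0.965 for Epas1, 0.839 for Hif1a, 0.790 for Egln3 and 0.767 for Egln1. Counting intervals of Vhl, Arnt and Epas1 held 1. The median absolute log2 ratio was 0.20 for the 10 genes and 0.22 for all tested genes. On the TPM scale, where the median gene was 0.21 higher in log2, the Egln2 ratio was 1.43 and that of Hif1a 0.946. Spike-in scaling put the median gene at -0.93, and 9 of the 10 genes were then past 1.5-fold lower, as were 81.6% of all tested genes.

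**Figure D4:**
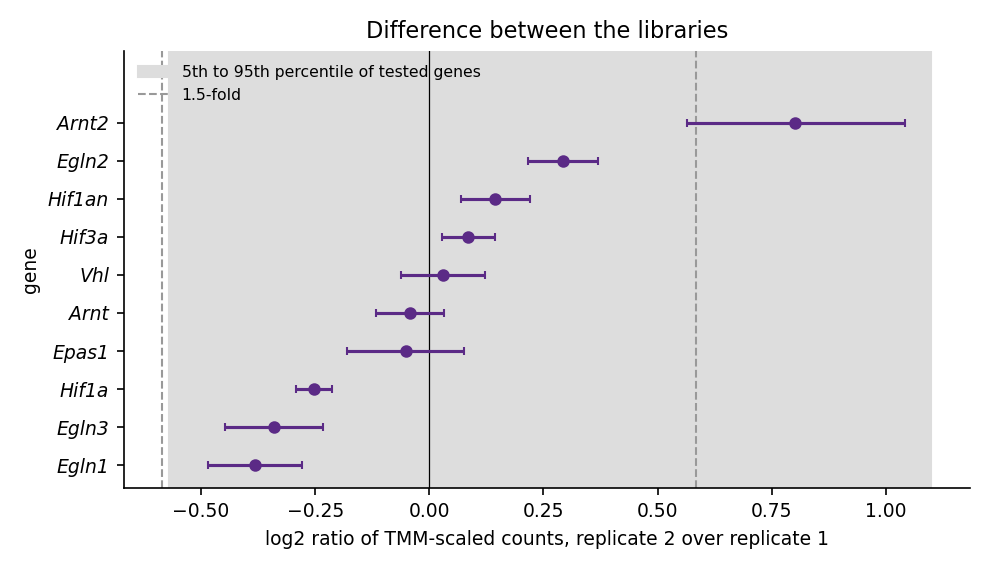
Log2 ratio of TMM-scaled counts, replicate 2 over replicate 1, for each gene with its exact 95% counting interval, with dashed lines at 1.5-fold and a grey band for the 5th to 95th percentile of all tested genes. Arnt2 at 0.80 is the only gene beyond a dashed line, and all 10 genes lie inside the band.

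Genes that work with HIF, or respond to it, were described from 4 lists. Of 19 coactivators and modulators, Hif1an among them, all were detected, and their median was 17.9 TPM. They ran from the ubiquitin ligase gene Siah2 at 4.27 TPM to the chaperone Hsp90ab1 at 962 TPM. None was past 1.5-fold between libraries, against 15.9% of all tested genes. The coactivator genes Ep300 and Crebbp, whose products bind the alpha subunit, had 6.94 and 8.46 TPM and 17.1 and 18.7 TPM in replicates 1 and 2. Cited2, which competes for the same coactivators, had 22.9 and 22.0 TPM, and P4htm, a membrane-bound prolyl hydroxylase, 15.4 and 17.2 TPM.

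The bHLH-PAS family, to which HIF alpha and ARNT belong, was represented by 14 other genes. Of these, 8 reached 1 TPM in each library, and the median was 1.84 TPM. The clock gene Per1 was highest at 13.2 and 20.6 TPM, and the neural factor Sim1 lowest, with counts of 0 and 1. Ahr, the aryl hydrocarbon receptor that shares Arnt as its partner, had 2.01 and 4.12 TPM and was 1.76-fold higher in replicate 2. It was past 1.5-fold as 1 of 10 genes with enough counts to compare, against 15.9% of all tested genes. The other 4 had under 10 counts in a library, among them the neural factor Sim2 with 3 and 61 counts. Like Arnt2 and the markers of other tissues, Ahr was higher in replicate 2, and the part of those tissues was not tested. Hif1a, Hif3a and Arnt were each above all 14 of these genes in both libraries. Epas1 was below Per1 and the clock gene Arntl in both. Arnt2 was below the list median in replicate 1 (1.19 against 1.74 TPM) and above it in replicate 2 (2.44 against 1.945 TPM).

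HIF targets were expressed across a wide range. Of 39 listed genes, 35 reached 1 TPM in each library. Their median was 23.3 TPM, and the extremes ran from the stem cell factor Pou5f1 at a count of 0 in both libraries to lactate dehydrogenase Ldha at 2201 TPM. Epo, the erythropoietin gene, had 1 count in each library. Vegfa, the endothelial growth factor, had 5.09 and 5.54 TPM, while the glucose transporter Slc2a1 had 106 and 115 TPM and the kinase Pdk1 had 79.2 and 70.6 TPM. Hif3a, Egln3 and Egln1 are members of this list too and ranked 16, 24 and 29 of the 39 by mean TPM.

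Between libraries 3 of the 37 targets with enough counts were past 1.5-fold, against 15.9% of all tested genes. Bnip3, a mitophagy receptor, had 205 and 154 TPM, and in scaled counts was 1.58-fold higher in replicate 1. Car12, a carbonic anhydrase, had 0.31 and 1.02 TPM and was 3.03-fold higher in replicate 2. The median log2 ratio of the list was -0.21, against -0.02 for all tested genes.

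**Figure D5:**
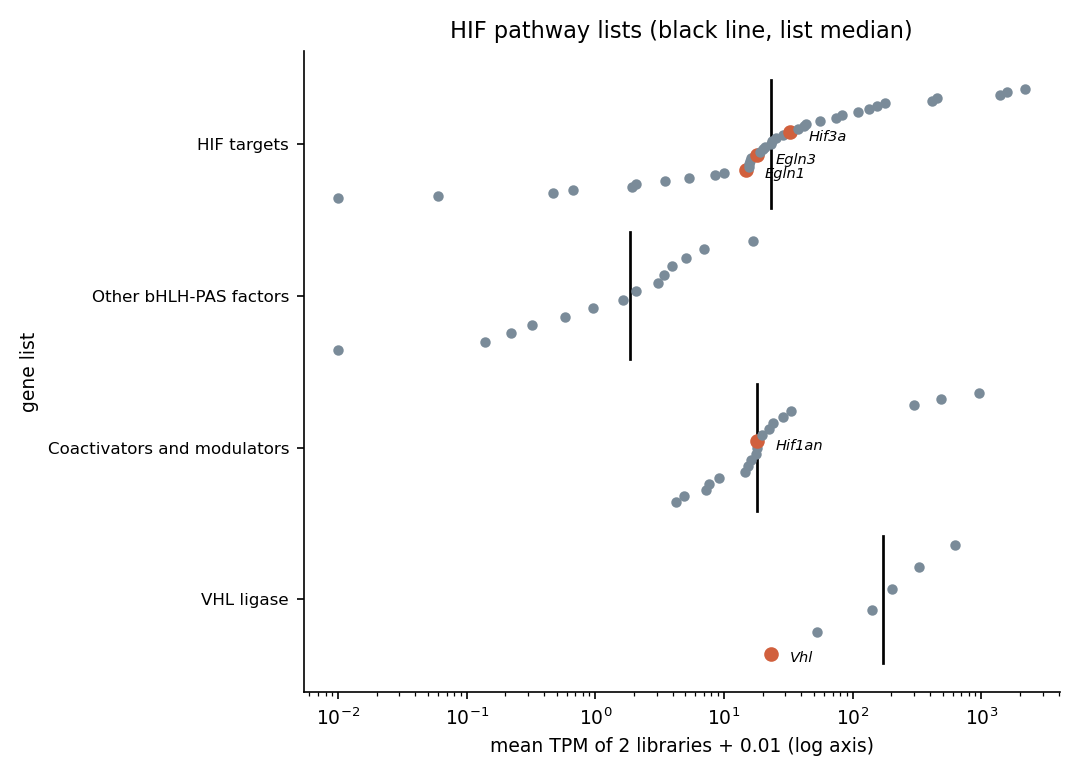
Mean TPM over the 2 libraries plus 0.01, on a log axis, for each gene of the 4 pathway lists, with black lines at the list medians and orange points for the HIF and oxygen sensor genes, so that a gene at 0 stands at 0.01. Vhl is the lowest point of its ligase list, and Hif3a, Egln3 and Egln1 rank 16, 24 and 29 of the 39 HIF targets.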

How the data were processed

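RNA-seq of 2 libraries of 1 group was analysed. Per the file headers, quantification by the authors used transcriptome alignments, mm10 and GENCODE M4 (aligner and quantifier: not given in the sources used here). Deposited expected counts are estimates of the reads from each feature, without normalization. The deposited TPM divide them by effective length and scale each library to the same sum over all features, 97 spike-ins included. The deposited percent is each transcript's part of its gene's TPM. Library kit and protocols, per the labels: mirVana extraction and a linked SMARTer Ultra Low manual.

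Genes were matched by identifier to GENCODE M21 (same build; 42462 of 43346). Of 33 transcripts of the 10 genes, 29 had the same length there; Epas1-201, Hif3a-203, Arnt2-201 and Egln1-201 did not, so their coordinates are those of M21. The authors' deposited posterior spread of the count was 0 for 9 of the 10 genes, all but Hif1a at 2.28 and 1.85 reads.

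Log2 ratios used a pseudocount of 0.1 TPM. Counts of the 2 libraries were scaled with edgeR 4.0.16 (TMM, rounded counts; DESeq2 1.42.0 size factors as an alternative) in R 4.3.3 and compared over genes with 10 or more counts in each; the scaling was tested on simulated data. Counting intervals are exact (Poisson, or conditional binomial for ratios), at 95%, from scipy 1.17.1, and cover counting error only. A single read at an effective length of 1 kb was worth 0.0308 and 0.0345 TPM. The members and lists were chosen with earlier results of these data known. Named were all 10 genes, the highest and lowest of each pathway list, those past 1.5-fold and the ligase subunits; other genes were named after their values were seen. A further HIF target past 1.5-fold is not reported here. Separate pools of embryos are the replicates.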

Additional observations from a re-analysis of the deposited data

How the results depend on the processing

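Of 7 paralog ratios, none changed direction with the pseudocount (1 or 0.01 TPM), posterior mean TPM, protein-coding transcripts only or either library left out. On counts without length normalization the log2 ratio was 3.46 for Hif1a/Epas1, -2.27 for Epas1/Hif3a, 3.25 for Arnt/Arnt2, -0.83 for Egln1/Egln2 and 2.36 for HIF alpha/ARNT, and it reversed to 0.13 for Egln1/Egln3 and -0.56 for Vhl/Hif1an. Elsewhere only Epas1/Hif3a at a pseudocount of 1 TPM (-2.23) and Vhl/Hif1an over protein-coding transcripts (0.66) moved by more than the SD. Leaving out a library could not show such a move, since each of 2 values always lies within 1 SD of their mean. All 10 genes stayed at 1 TPM or more in each library; under the thresholds of 0.5 and 5 TPM, 10 and 9 passed. Genes past 1.5-fold higher in replicate 2 numbered 1 under each scaling except spike-ins (0 higher, 9 lower) and were 0 at 2-fold. The share of all genes higher was 17.9% in TPM, 2.90% by spike-ins, 17.7% with any count above 0, 4.26% from 100 counts and 5.86% at 2-fold, and the share lower was 2.33% by total counts, 2.02%, 81.6%, 9.42%, 2.53% and 0.922% in the same settings. At 5 TPM, 2 of the other bHLH-PAS factors passed. Of 48 recomputed transcript shares, 12 moved by more than the SD. The 48 include those with a library left out, which could not move that far. Shares by reads were tried after seeing the data. No paired analysis was possible because there was 1 group. Depth limits Arnt2 most, with 227 and 416 counts, and the start-specific exons of Hif3a and Hif1a are short, so transcript shares are estimates. Both libraries are pools of whole hearts with unequal RNA of other tissues.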
